A study of Homo sapiens with 8 samples.

Results

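The genes described here are 50 human genes for receptor tyrosine kinases outside the ERBB and insulin receptor families. They were chosen by symbol from the deposited gene tables, which list 20531 genes. Of the 50 genes, 34 had a normalised read count of 10 or more in at least 1 of 8 libraries, and 23 of those reached 100. The libraries held poly(A) RNA from 2 human breast cancer cell lines with an amplified HER2 gene, SKBR-3, described as negative for the hormone receptors, and BT474m1, derived from BT474 and described as positive for them. Within each line the 4 groups were cells given DMSO, the drug vehicle, cells given 300 nM lapatinib, which blocks the kinases of EGFR and HER2, cells given 300 nM JQ1, which displaces the BET bromodomain proteins from acetylated chromatin, and cells given both drugs. The labels give a treatment of 48 h for each group. A figure legend of the study gives the same time for RNA sequencing of SKBR-3 with DMSO or lapatinib. A shorter exposure is what the study's methods state in general. All cultures were grown in RPMI medium with fetal bovine serum. Each group held 1 library, so that no difference could be set against a spread between replicate cultures and no p-value is given.

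Receptor tyrosine kinases bind a ligand outside the cell, pair, and phosphorylate one another and their adaptor proteins inside it, which feeds the MAPK and PI3K pathways. Breast cancer cells in which HER2 is inhibited are known to alter the expression of other receptor kinases. The study compared a HER2 inhibitor, a BET inhibitor and their combination to find transcriptional changes that accompany this adaptive response. The families differ in their ligands. The DDR receptors bind collagen, the TAM receptors (TYRO3, AXL and MERTK) bind GAS6 and protein S, the FGFR receptors bind fibroblast growth factors, and the EPH receptors bind membrane-tethered ephrins on neighbouring cells. Some members, such as RYK, PTK7 and EPHB6, carry a kinase domain that lacks normal catalytic activity and act by recruiting partners.

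Levels are normalised read counts, that is, estimated counts to which the authors applied upper quartile scaling, with the quartile of the genes above 0 set to 1000 in each library. Differences between libraries are on the log2(value + 1) scale, on which the change of a low gene is understated. A gene is said to have risen or fallen where the difference was at least 2-fold. The bracketed range after a difference is its 95% exact interval from the recovered read numbers, and it covers counting error only, since the reads carry no molecular identifiers and PCR copies of 1 molecule count separately. The interval is that of the ratio of reads without the added 1, so that for low genes the difference does not lie at its centre. The 3 treatments of a line were compared with the same DMSO library, and the comparisons with a single drug reuse that drug's library, so that a library that deviates enters several comparisons. In RNA from whole cultures, fewer cells that express a gene and less RNA per cell cannot be told apart.

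The libraries held 21420113 to 34112379 reads on genes. All 9 luminal epithelial markers, among them EPCAM, KRT8 and ERBB2, reached 10 in at least 1 library of each line, but CDH1 did so in SKBR-3 only in the combination library, at 15.1, and was at 19414 or more in BT474m1. Of the 2 hormone receptor markers, PGR was below 10 in SKBR-3. ESR1 was there at 4.295 under DMSO, 16.85 under lapatinib, 1.93 under JQ1 and 2.75 under both drugs. In BT474m1 with DMSO, ESR1 was at 840 and PGR at 858. Of the markers of other cell types, 3 of 6 endothelial genes reached 10 in each line, with ESAM the highest at 289 in SKBR-3 and VWF at 153 in BT474m1. Of 7 haematopoietic genes 3 did in SKBR-3, led by LCP1 at 555, and 2 in BT474m1, and of 8 stromal genes 2 did in each line, led by COL1A1 at 1253 in BT474m1. PECAM1, CLDN5, EMCN, PTPRC, CD14, CD3E, HBB, COL1A2, COL3A1, DCN, LUM and FAP stayed below 10 in both lines. The run names of the 2 lines differ, so that a difference between runs and a difference between lines cannot be told apart.

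DDR1, a collagen receptor of epithelial cells, had the highest level of the 34 receptors per kilobase of transcript in both lines with DMSO. Its normalised read count per kilobase was 1776.5 in SKBR-3, which was 39.1% of the summed level of the 34 receptors, and 1321 in BT474m1, or 22.9%. In SKBR-3 the next receptors by level per kilobase were EPHB4 at 304.9, FGFR4 at 277.7, RYK at 254.5, EPHB3 at 249.5 and EPHB6 at 243.1. These neighbours lay close together, whereas DDR1 stood clear of them. In BT474m1 DDR1 was followed by FGFR4 at 1208, EPHB4 at 755, PTK7 at 411, RYK at 377 and EPHB3 at 340.5. With DMSO in SKBR-3, the EPHB family held 17.6% of the summed level per kilobase and the FGFR family 15.1%, behind the DDR family. In BT474m1 the FGFR family, with 25.3%, held more than the DDR family, and the EPHB family held 21.5%. In SKBR-3 the DDR share was 56.9% under lapatinib, 25.1% under JQ1 and 57.3% under both, and in BT474m1 it was 36.8%, 17.8% and 35.0% in the same order. The FGFR share was highest with JQ1, at 22.5% in SKBR-3 and 35.5% in BT474m1. Since the shares of a library sum to a whole, the levels are needed beside them. The summed FGFR level per kilobase was 688 under DMSO, 707 under lapatinib, 850.3 under JQ1 and 442 under both drugs in SKBR-3, so that its share was lower with lapatinib, at 10.8% against 15.1%, while its level was not. In BT474m1 the FGFR level per kilobase was 1458, 911, 2249 and 1016 in the same order.

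**Figure D1:**
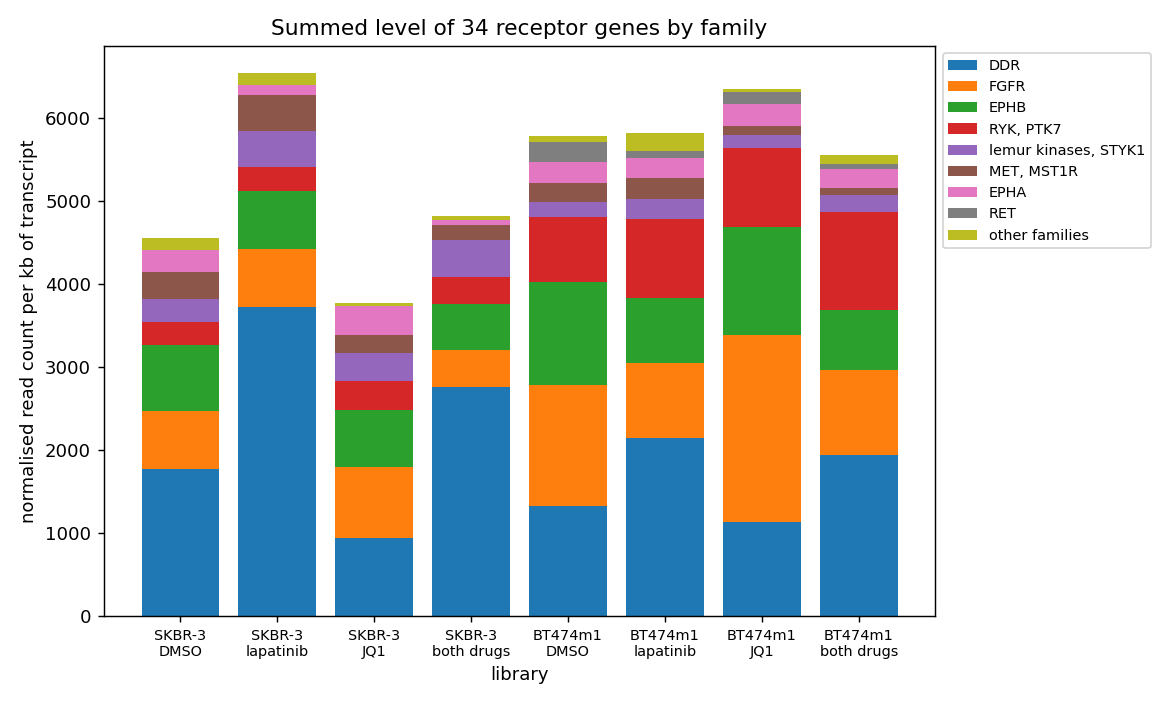
Summed level of the 34 receptor genes in each of the 8 libraries, as normalised read count per kilobase of transcript (vertical axis), divided by family. The DDR block, which is almost all DDR1, is tallest in the lapatinib and combination libraries of SKBR-3, at 56.9% and 57.3% of the sum.

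**Figure D2:**
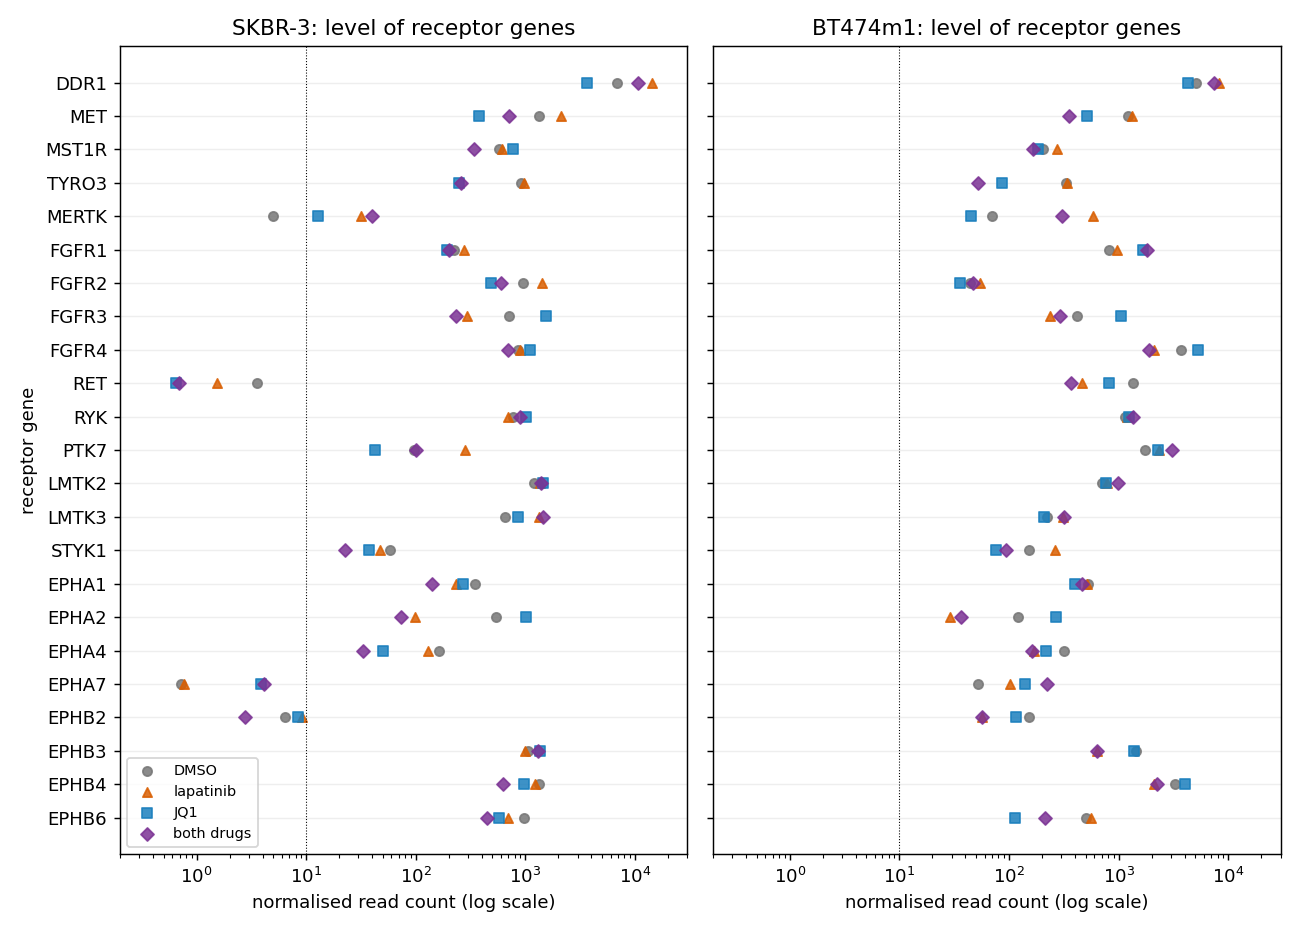
Normalised read count (horizontal log axis) of the 23 receptors that reached 100 in any library, with 1 symbol per treatment and the lines in separate panels. The dotted line marks a count of 10, below which the SKBR-3 values of RET, EPHA7 and EPHB2 lie.

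Of the 34 receptors, 22 (64.7%) reached 10 in SKBR-3 and 33 (97.1%) in BT474m1, beside 88.8% and 95.7% of all genes kept. With DMSO, BT474m1 exceeded SKBR-3 at least 2-fold for 16 receptors, against 26.8% of all 14429 genes kept, and fell at least 2-fold short of it for 7, against 15.6%. The interval excluded no difference for 15 of the higher and 6 of the lower receptors (25.8% and 15.3% of all genes). The others were LTK, which was higher, and AATK, which was lower, and a pseudocount of 10 ended both of these calls. Of the 16 higher receptors, 10 reached 10 in BT474m1 only, so that the filter kept them through the line in which they were high, and their count is no support for a difference between the lines. Among the 21 receptors that reached 10 in both lines, 6 were higher in BT474m1 and 6 lower, beside 20.8% and 13.9% of the genes that reached 10 in both lines, and the median difference was -0.11 beside 0.13. RET, the receptor of the GDNF family of neurotrophic ligands, differed most among the receptors, at 3.58 in SKBR-3 and 1343 in BT474m1, a log2 difference of 8.2 (7.33 to 10.18). PTK7, a Wnt co-receptor, stood 4.16 (3.93 to 4.44) above SKBR-3 in BT474m1, EPHB2 4.36 (3.62 to 5.70), MERTK 3.56 (2.72 to 5.14) and FGFR4 2.12 (2.03 to 2.21). The receptors that were higher in SKBR-3 included FGFR2, whose log2 value in BT474m1 minus that in SKBR-3 was -4.42 (-4.77 to -4.15), and EPHA2, at -2.15 (-2.37 to -1.95).

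In the DDR family, DDR1 (Entrez 780) had a level of 6815 under DMSO, 14257 under lapatinib, 3637 under JQ1 and 10579.5 under both drugs in SKBR-3. In BT474m1 its level was 5067 under DMSO, 8203 under lapatinib, 4329.5 under JQ1 and 7454 under both drugs. Both lapatinib-treated libraries of each line were above both libraries without lapatinib, and the highest level was with lapatinib alone. Against DMSO, DDR1 rose with lapatinib in SKBR-3, at 1.06 (1.03 to 1.10), and its difference in BT474m1 was 0.69 (0.66 to 0.73), which is short of 2-fold. Against JQ1 alone, both drugs raised it in SKBR-3, at 1.54 (1.5 to 1.58). In the presence of JQ1 alone, DDR1 differed from DMSO by -0.91 (-0.95 to -0.86) in SKBR-3, and with libraries scaled to equal totals that difference became -1.05 and passed 2-fold. DDR2, the other collagen receptor, stayed between 0.716 and 2.75 in SKBR-3 and between 7.0 and 16.3 in BT474m1.

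MET (Entrez 4233), the receptor of hepatocyte growth factor, had levels of 1329 under DMSO, 2115 under lapatinib, 379.5 under JQ1 and 715 under both drugs in SKBR-3 and of 1227 under DMSO, 1315 under lapatinib, 517 under JQ1 and 349 under both drugs in BT474m1. The libraries with JQ1 held less MET than the matching libraries without it in both lines. MET fell with JQ1, at -1.80 (-1.94 to -1.67) in SKBR-3 and -1.24 (-1.35 to -1.14) in BT474m1 on the log2 scale, and with both drugs against lapatinib it fell again, at -1.56 (-1.67 to -1.46) and -1.91 (-2.05 to -1.78). Lapatinib alone left MET within 2-fold of DMSO, at 0.67 (0.59 to 0.76) in SKBR-3 and 0.10 (0.02 to 0.18) in BT474m1. MST1R (Entrez 4486), the receptor of macrophage-stimulating protein, was at 578 under DMSO, 614 under lapatinib, 773 under JQ1 and 336 under both drugs in SKBR-3, and at 202 under DMSO, 272 under lapatinib, 182 under JQ1 and 164 under both drugs in BT474m1. Its lowest level in each line was with both drugs. The only comparison in which MST1R passed 2-fold within a line was both drugs against JQ1 in SKBR-3, at -1.20 (-1.35 to -1.05). Exons of MST1R, and likewise those of AXL, EPHA4 and EPHA7, overlap long noncoding RNA genes on the opposite strand. The labels name a stranded and an unstranded library kit, so that reads from such partners and from the receptor may not have been told apart.

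Of the TAM receptors, TYRO3 was low in the libraries with JQ1 and MERTK was high in those with lapatinib, in both lines. TYRO3 (Entrez 7301) had levels of 918 under DMSO, 979 under lapatinib, 249 under JQ1 and 260.0 under both drugs in SKBR-3 and of 333 under DMSO, 338 under lapatinib, 86.5 under JQ1 and 52.5 under both drugs in BT474m1. Lapatinib left it within 2-fold, with differences of 0.09 (-0.02 to 0.21) and 0.02 (-0.14 to 0.18), whereas every library with JQ1 was low. TYRO3 fell with JQ1, at -1.88 (-2.05 to -1.72) in SKBR-3 and -1.93 (-2.19 to -1.71) in BT474m1, and with both drugs against lapatinib, at -1.91 (-2.08 to -1.75) and -2.66 (-3.02 to -2.36). MERTK (Entrez 10461), which clears apoptotic cells in macrophages and is also found on tumour cells, was at 5.01 under DMSO, 31.4 under lapatinib, 12.9 under JQ1 and 39.9 under both drugs in SKBR-3, where the DMSO value rests on 7 reads. In BT474m1 it was at 69.8 under DMSO, 579.5 under lapatinib, 45.4 under JQ1 and 306 under both drugs. Both lapatinib-containing libraries were above both others in each line. MERTK rose with lapatinib, at 2.43 (1.48 to 4.05) in SKBR-3 and 3.04 (2.80 to 3.31) in BT474m1, and with both drugs against DMSO, at 2.77 (1.86 to 4.37) and 2.11 (1.86 to 2.40). JQ1 alone also passed 2-fold for MERTK in SKBR-3, at 1.21 (0.06 to 2.85), or 0.61 with a pseudocount of 10, and was at -0.61 (-1.01 to -0.24) in BT474m1. Adding JQ1 to lapatinib left MERTK within 2-fold, at 0.34 (-0.26 to 0.96) in SKBR-3 and -0.92 (-1.08 to -0.77) in BT474m1. AXL (Entrez 558), the third TAM receptor, had 0 reads in all 4 SKBR-3 libraries, which allows up to 3 reads in each. In BT474m1 AXL was at 0.471 under DMSO, 16.9 under lapatinib, 0.966 under JQ1 and 8.16 under both drugs, which is 1, 28, 2 and 14 reads, and it rose with lapatinib, at 3.60 (2.56 to 10.51) and with both drugs, at 2.64 (1.40 to 9.52).

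The promoters of MERTK and TYRO3 are given because MERTK rose with lapatinib and TYRO3 fell with JQ1 in both lines. They are 300 bases long, from 250 before to 50 after the RefSeq start site on GRCh38.p14, read 5′ to 3′ on the gene's strand, and the capitals mark matches on either strand to the motifs named after the sequences. MERTK lies at chr2:111898357-111898656 on the plus strand and TYRO3 at chr15:41558962-41559261 on the plus strand.
MERTK: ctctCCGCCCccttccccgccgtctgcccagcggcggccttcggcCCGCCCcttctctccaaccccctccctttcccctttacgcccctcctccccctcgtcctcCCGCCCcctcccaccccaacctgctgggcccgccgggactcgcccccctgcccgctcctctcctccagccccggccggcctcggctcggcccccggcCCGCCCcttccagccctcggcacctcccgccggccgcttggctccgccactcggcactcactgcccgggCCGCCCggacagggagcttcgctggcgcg
TYRO3: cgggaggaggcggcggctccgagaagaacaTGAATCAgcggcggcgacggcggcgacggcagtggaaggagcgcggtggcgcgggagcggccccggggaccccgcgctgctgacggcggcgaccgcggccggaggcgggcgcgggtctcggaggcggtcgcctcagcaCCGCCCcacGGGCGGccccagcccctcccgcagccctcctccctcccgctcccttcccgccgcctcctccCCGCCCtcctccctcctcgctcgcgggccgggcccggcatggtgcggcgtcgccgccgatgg
The motifs searched were the forkhead motif GTAAACA or GTCAACA, the E-box CACGTG, the cyclic AMP response element core GACGTC and the GC box GGGCGG. The AP-1 motif was searched loosely, as TGANTCA with any base at N. A promoter entry existed for 30 of the 34 receptors. The GC box was in 24 of the 30 (80.0%) and in 68.3% of the promoters of 11389 genes kept, the AP-1 motif in 3 (10.0%) and 4.62%, and the E-box in 3 (10.0%) and 10.0%. The forkhead motif was in 0 of the 30 and in 3.72% of all, and the GACGTC core in 1 (3.33%), EPHA2, and in 7.57%. The capitals in MERTK are GC boxes, and those in TYRO3 are 1 match to the loose AP-1 pattern, with A at N, and 3 GC boxes. A match describes these letters and does not show that a factor bound there.

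The FGFR genes encode the fibroblast growth factor receptors. FGFR3 (Entrez 2261) had levels of 705 under DMSO, 295 under lapatinib, 1532 under JQ1 and 232 under both drugs in SKBR-3 and of 416 under DMSO, 236 under lapatinib, 1062 under JQ1 and 294 under both drugs in BT474m1. The JQ1 library was the highest of each line and the lapatinib and combination libraries were the lowest. FGFR3 rose with JQ1, at 1.12 (1.01 to 1.23) in SKBR-3 and 1.35 (1.24 to 1.47) in BT474m1. With libraries scaled to equal totals the SKBR-3 value was 0.97 and no longer passed 2-fold. Lapatinib lowered FGFR3 in SKBR-3, at -1.26 (-1.43 to -1.09), and its difference in BT474m1 was -0.82 (-1.0 to -0.65). Both drugs against JQ1 alone lowered FGFR3, at -2.72 (-2.89 to -2.56) and -1.85 (-2.00 to -1.71) on the log2 scale.

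FGFR4 (Entrez 2264), which is prominent in luminal and HER2-positive breast cancer, was at 859 under DMSO, 884 under lapatinib, 1100.5 under JQ1 and 693 under both drugs in SKBR-3. In BT474m1 it was at 3736 under DMSO, 2089 under lapatinib, 5270.5 under JQ1 and 1912 under both drugs, with both lapatinib-containing libraries below both others. Both drugs against JQ1 lowered FGFR4 in BT474m1, at -1.46 (-1.52 to -1.41) on the log2 scale, and its lapatinib difference there was -0.84 (-0.90 to -0.78), short of 2-fold. FGFR1 (Entrez 2260) was at 221 under DMSO, 273 under lapatinib, 194 under JQ1 and 203 under both drugs in SKBR-3 and at 819.9 under DMSO, 961 under lapatinib, 1654 under JQ1 and 1819 under both drugs in BT474m1. It rose in BT474m1 with JQ1, at 1.01 (0.93 to 1.10), and with both drugs, at 1.15 (1.06 to 1.24), while its differences from DMSO in SKBR-3 all lay within 2-fold. With equal totals the JQ1 value in BT474m1 was 0.99. Exons of FGFR1 overlap LETM2 on the opposite strand. FGFR2 (Entrez 2263) was at 961 under DMSO, 1409.6 under lapatinib, 483 under JQ1 and 594 under both drugs in SKBR-3 and at 43.9 under DMSO, 54.2 under lapatinib, 35.8 under JQ1 and 47.2 under both drugs in BT474m1. In SKBR-3 the JQ1-containing libraries were the lower pair, with a difference of -0.99 (-1.12 to -0.86) for JQ1, which became -1.14 and passed 2-fold at equal totals, and a fall, at -1.25 (-1.37 to -1.13), for both drugs against lapatinib.

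RET (Entrez 5979) could be followed in BT474m1, while SKBR-3 held 1 to 5 reads of it per library. Its levels in BT474m1 were 1343 under DMSO, 467 under lapatinib, 821 under JQ1 and 366 under both drugs. Every treated library was below DMSO, and both libraries with lapatinib were the lowest. RET fell with lapatinib, at -1.52 (-1.64 to -1.41), with both drugs against DMSO, at -1.87 (-2.00 to -1.75) and with both drugs against JQ1, at -1.17 (-1.30 to -1.03) on the log2 scale. The JQ1 difference of -0.71 (-0.80 to -0.62) did not reach 2-fold. LTK (Entrez 4058), a receptor related to ALK, was at 0 under DMSO, 7.66 under lapatinib, 0.644 under JQ1 and 0.688 under both drugs in SKBR-3, which is 0, 10, 1 and 1 reads. In BT474m1 it was at 3.30 under DMSO, 24.7 under lapatinib, 4.35 under JQ1 and 38.5 under both drugs, or 7, 41, 9 and 66 reads. LTK rose with lapatinib in both lines, at least 3.57-fold in SKBR-3 when the DMSO library is set to the floor of 3 reads, with a counting interval that starts at 1.26 on the log2 scale, and by 2.58 (1.73 to 4.31) on the log2 scale in BT474m1. With both drugs SKBR-3 held 1 read of LTK, a fall against lapatinib, at -2.36 (-8.92 to -0.66), or -0.72 and short of 2-fold with a pseudocount of 10, whereas in BT474m1 LTK stood 3.2 (2.42 to 4.91) above DMSO. The promoter of LTK, at chr15:41513778-41514077 on the minus strand of GRCh38.p14, is given as the second of the pair raised by lapatinib in both lines, and it holds none of the motifs named above.
LTK: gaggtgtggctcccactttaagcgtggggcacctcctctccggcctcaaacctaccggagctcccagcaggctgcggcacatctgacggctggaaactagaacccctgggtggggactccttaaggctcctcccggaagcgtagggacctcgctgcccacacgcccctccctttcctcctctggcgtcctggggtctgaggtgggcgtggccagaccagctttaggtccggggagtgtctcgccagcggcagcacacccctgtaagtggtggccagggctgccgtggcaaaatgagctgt

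RYK (Entrez 6259) and PTK7 (Entrez 5754) are Wnt-binding receptors without normal kinase activity. RYK was at 776 under DMSO, 691 under lapatinib, 1005 under JQ1 and 896 under both drugs in SKBR-3 and at 1149.5 under DMSO, 1203 under lapatinib, 1251 under JQ1 and 1354 under both drugs in BT474m1, and no comparison within a line reached 2-fold. PTK7 was at 95.9 under DMSO, 283 under lapatinib, 42.5 under JQ1 and 99.7 under both drugs in SKBR-3. In BT474m1 it was at 1736 under DMSO, 2331 under lapatinib, 2268 under JQ1 and 3097 under both drugs. In SKBR-3 the lapatinib library stood above the other 3 and the JQ1 library below them, while the combination library was close to DMSO. PTK7 rose with lapatinib in SKBR-3, at 1.55 (1.27 to 1.86), fell with JQ1, at -1.15 (-1.62 to -0.74), and differed between both drugs and DMSO by 0.06 (-0.29 to 0.41). In BT474m1 all 3 treated libraries were above DMSO by less than 2-fold, the largest difference being 0.83 (0.77 to 0.90) with both drugs.

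The lemur kinases are membrane-anchored kinases of the endosome and the nervous system. LMTK2 (Entrez 22853) was at 1202 under DMSO, 1356 under lapatinib, 1454 under JQ1 and 1399 under both drugs in SKBR-3 and at 702 under DMSO, 784 under lapatinib, 767 under JQ1 and 993 under both drugs in BT474m1, and did not reach 2-fold in any comparison within a line. LMTK3 (Entrez 114783) was at 648 under DMSO, 1324 under lapatinib, 856 under JQ1 and 1452 under both drugs in SKBR-3 and at 222 under DMSO, 309 under lapatinib, 208 under JQ1 and 319 under both drugs in BT474m1. Both libraries with lapatinib were the highest in each line. LMTK3 rose in SKBR-3 with lapatinib, at 1.03 (0.91 to 1.15), and with both drugs, at 1.16 (1.05 to 1.28), and stood within 2-fold of DMSO in BT474m1, at 0.48 (0.30 to 0.66) and 0.52 (0.34 to 0.71). With equal totals the SKBR-3 lapatinib value was 0.98. STYK1 (Entrez 55359), a related membrane kinase, was at 58.0 under DMSO, 47.5 under lapatinib, 37.4 under JQ1 and 22.7 under both drugs in SKBR-3 and at 151 under DMSO, 266 under lapatinib, 75.4 under JQ1 and 93.9 under both drugs in BT474m1. In BT474m1 it stood just short of a 2-fold fall with JQ1, and passed it, at -1.02, only at equal totals. With both drugs against lapatinib it fell, at -1.03 (-1.72 to -0.43) in SKBR-3 and -1.49 (-1.77 to -1.24) in BT474m1. The SKBR-3 value was -0.88 with scaling by the median of ratios and -0.81 with a pseudocount of 10, and then fell short of 2-fold.

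Among the ephrin-A receptors, EPHA2 (Entrez 1969), an ephrin-A1 receptor of epithelial and tumour cells, fell with lapatinib in both lines. Its levels were 545 under DMSO, 98.8 under lapatinib, 1008 under JQ1 and 72.9 under both drugs in SKBR-3 and 122 under DMSO, 28.9 under lapatinib, 269 under JQ1 and 36.1 under both drugs in BT474m1. In each line JQ1 gave the highest level, DMSO the next, and both lapatinib-containing libraries the lowest. EPHA2 fell with lapatinib, at -2.45 (-2.74 to -2.19) in SKBR-3 and -2.04 (-2.55 to -1.63) in BT474m1 on the log2 scale. With JQ1 it rose in BT474m1, at 1.13 (0.92 to 1.36), and differed by 0.89 (0.76 to 1.02) in SKBR-3. Both drugs against JQ1 alone lowered it, at -3.77 (-4.09 to -3.51) and -2.86 (-3.30 to -2.51), and both drugs against lapatinib left it within 2-fold, at -0.43 (-0.82 to -0.06) and 0.31 (-0.24 to 0.90). The promoter of EPHA2, at chr1:16156020-16156319 on the minus strand of GRCh38.p14, is given for this fall in both lines and was chosen after the values were seen, as was that of TYRO3. Its capitals mark a GC box and the GACGTC core.
EPHA2: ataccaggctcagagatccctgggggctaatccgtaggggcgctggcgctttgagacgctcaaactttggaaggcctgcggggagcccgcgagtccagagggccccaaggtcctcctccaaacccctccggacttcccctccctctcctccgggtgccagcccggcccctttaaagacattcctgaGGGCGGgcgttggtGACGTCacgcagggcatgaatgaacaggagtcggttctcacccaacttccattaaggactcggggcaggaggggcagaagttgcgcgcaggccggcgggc

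EPHA1 (Entrez 2041) had levels of 344 under DMSO, 233 under lapatinib, 270.0 under JQ1 and 141 under both drugs in SKBR-3 and of 526 under DMSO, 519 under lapatinib, 404 under JQ1 and 466 under both drugs in BT474m1. It fell only in SKBR-3 with both drugs against DMSO, at -1.28 (-1.53 to -1.05), and the matching difference in BT474m1 was -0.18 (-0.31 to -0.04). Exons of EPHA1 overlap ZYX on the opposite strand. EPHA4 (Entrez 2043) was at 164 under DMSO, 128 under lapatinib, 50.3 under JQ1 and 33.0 under both drugs in SKBR-3 and at 319 under DMSO, 170.2 under lapatinib, 218 under JQ1 and 162 under both drugs in BT474m1. The SKBR-3 libraries with JQ1 were the lower pair, whereas in BT474m1 the libraries with lapatinib were. EPHA4 fell in SKBR-3 with JQ1, at -1.69 (-2.10 to -1.33) and with both drugs against DMSO, at -2.28 (-2.79 to -1.86), and its combination difference in BT474m1 was -0.98 (-1.19 to -0.78), which just passed 2-fold when scaled by the median of ratios. EPHA7 (Entrez 2045) was at 0.716 under DMSO, 0.766 under lapatinib, 3.87 under JQ1 and 4.13 under both drugs in SKBR-3, or 1 to 6 reads, and at 52.3 under DMSO, 101 under lapatinib, 141 under JQ1 and 223 under both drugs in BT474m1. In BT474m1 it rose with JQ1, at 1.41 (1.11 to 1.76), with both drugs, at 2.07 (1.78 to 2.41), and with both drugs against lapatinib, at 1.13 (0.87 to 1.41). The same 3 comparisons passed 2-fold in SKBR-3, but each of their intervals included no difference.

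EPHA8 (Entrez 2046), a receptor mostly described in the nervous system, was at 2.83 under DMSO, 91.6 under lapatinib, 1.93 under JQ1 and 19.2 under both drugs in BT474m1, or 6, 152, 4 and 33 reads. In SKBR-3 it had 8, 4, 1 and 0 reads, at most 5.73 normalised reads. In BT474m1 it rose with lapatinib, at 4.60 (3.86 to 6.49), and with both drugs it stood 2.40 (1.49 to 4.31) above DMSO and fell, at -2.19 (-2.84 to -1.70) against lapatinib. The BT474m1 lapatinib library held the highest level of EPHA8, followed by the combination library of that line, and the other 6 libraries were below 10. In SKBR-3, with 0 reads under both drugs, EPHA8 stood at least 2.78-fold under its DMSO level when set to the floor of 3 reads, with a counting interval that ends at -0.83 on the log2 scale and so allows less than 2-fold. With a pseudocount of 10 this call and that with JQ1 ended, at -0.65 and -0.56. EPHA3 stayed between 7.25 and 18.1 in BT474m1 and at 0 reads in all 4 SKBR-3 libraries. EPHA10 lay between 48.1 and 78.3 in BT474m1 and at 1.93 or lower in SKBR-3.

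The ephrin-B receptors included the most abundant EPH receptors. EPHB4 (Entrez 2050), the ephrin-B2 receptor of epithelia and veins, was at 1327 under DMSO, 1217 under lapatinib, 966 under JQ1 and 627 under both drugs in SKBR-3 and at 3287 under DMSO, 2105 under lapatinib, 4042 under JQ1 and 2222 under both drugs in BT474m1. The combination library was the lowest in SKBR-3, whereas in BT474m1 both libraries with lapatinib were low. EPHB4 fell in SKBR-3 with both drugs against DMSO, at -1.08 (-1.20 to -0.97), which became -0.94 with scaling by the median of ratios. Exons of EPHB4 overlap SLC12A9 on the opposite strand. EPHB3 (Entrez 2049) was at 1056 under DMSO, 992 under lapatinib, 1363 under JQ1 and 1299 under both drugs in SKBR-3 and at 1442 under DMSO, 637 under lapatinib, 1386 under JQ1 and 639.7 under both drugs in BT474m1. It fell in BT474m1 with lapatinib, at -1.18 (-1.28 to -1.08) and with both drugs, at -1.17 (-1.27 to -1.07), while the same differences in SKBR-3 were -0.09 (-0.20 to 0.02) and 0.30 (0.20 to 0.40).

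EPHB2 (Entrez 2048) had levels of 152 under DMSO, 56.6 under lapatinib, 116 under JQ1 and 57.1 under both drugs in BT474m1 and of 2.75 to 9.19 in SKBR-3. In BT474m1 it fell with lapatinib, at -1.41 (-1.77 to -1.09) and with both drugs, at -1.39 (-1.75 to -1.08), so that EPHB2 and EPHB3 both dropped there with either lapatinib-containing treatment. EPHB6 (Entrez 2051), a receptor without kinase activity, was at 972 under DMSO, 698 under lapatinib, 575 under JQ1 and 443 under both drugs in SKBR-3 and at 509 under DMSO, 566 under lapatinib, 114 under JQ1 and 215 under both drugs in BT474m1. The 2 BT474m1 libraries with JQ1 were low, and in SKBR-3 DMSO was the highest. EPHB6 fell with JQ1 in BT474m1, at -2.14 (-2.36 to -1.95) and differed by -0.76 (-0.88 to -0.63) in SKBR-3. With both drugs against DMSO it fell, at -1.13 (-1.27 to -1.0) in SKBR-3, which was -0.99 with scaling by the median of ratios, and -1.24 (-1.42 to -1.07) in BT474m1. EPHB1 reached 45.9 in BT474m1 with JQ1, against 10.8 to 18.7 in the other 3 libraries of that line, and 1.53 at most in SKBR-3. Exons of EPHB1 overlap a long noncoding RNA gene on the same strand, whose reads cannot be told apart by strand.

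**Figure D3:**
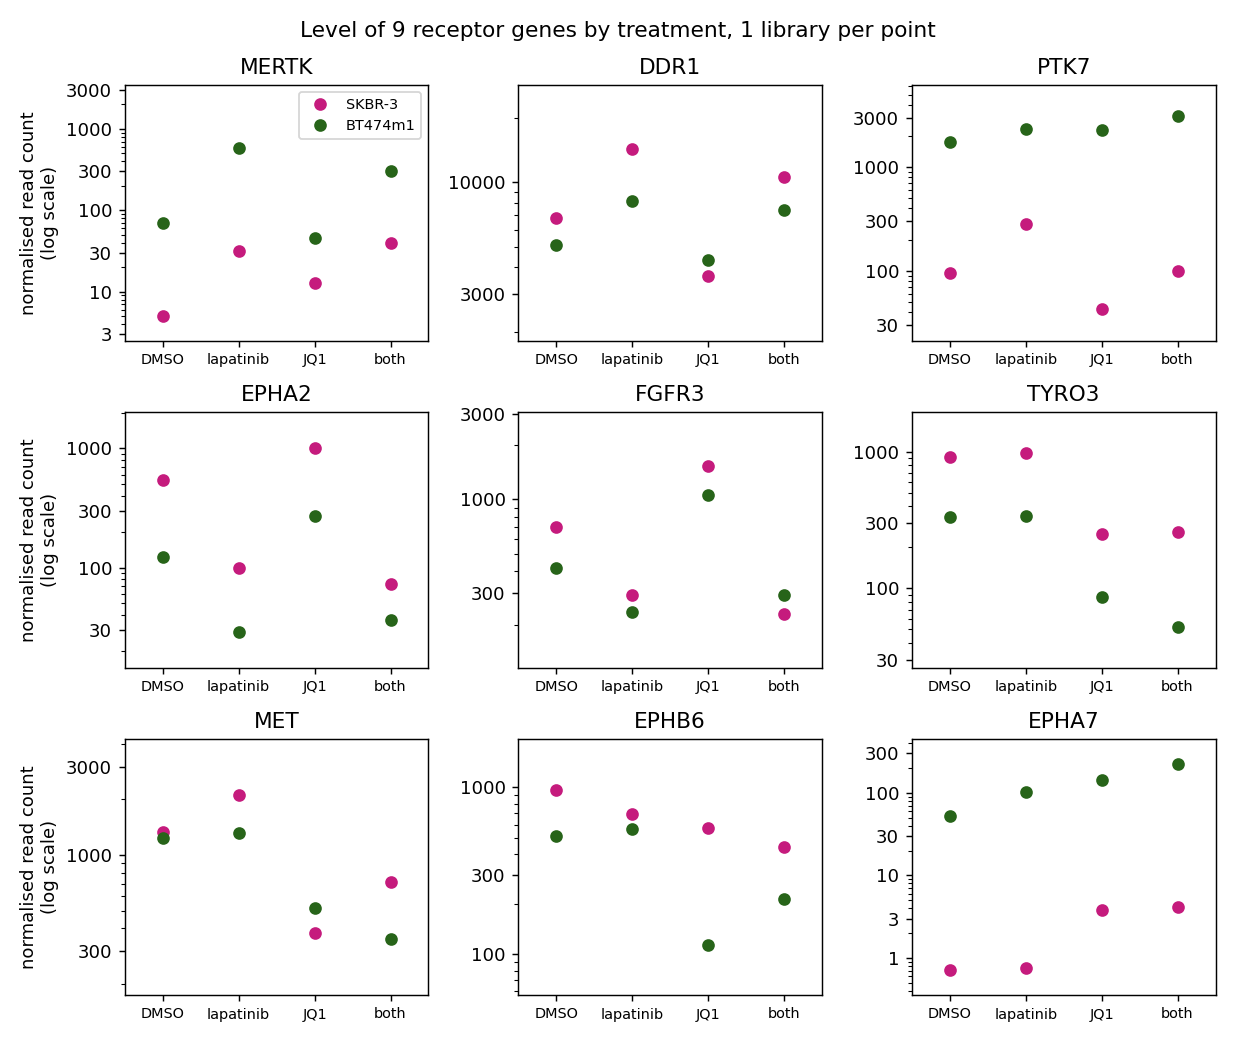
Normalised read count (vertical log axis, its range set for each gene) of 9 receptors by treatment, with 1 library per point and the lines in colour. EPHA2 and FGFR3 are highest with JQ1 and low in both libraries with lapatinib, whereas TYRO3 and MET are low in the libraries with JQ1.

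The other receptors were low. CSF1R (Entrez 1436), the macrophage colony-stimulating factor receptor, was at 83.8 under DMSO, 45.2 under lapatinib, 10.3 under JQ1 and 7.57 under both drugs in SKBR-3 and at 0 under DMSO, 3.62 under lapatinib, 2.90 under JQ1 and 4.67 under both drugs in BT474m1. It fell in SKBR-3 with JQ1, at -2.91 (-3.88 to -2.26) and with both drugs, at -3.31 (-4.51 to -2.58), and in BT474m1, where DMSO had 0 reads, it was at least 2.56-fold higher with lapatinib, 2.05-fold with JQ1 and 3.30-fold with both drugs when DMSO is set to the floor of 3 reads. The counting intervals start lower, at 0.59, 0.27 and 1.08 on the log2 scale, so that those with either single drug allow less than 2-fold. The summed level of 7 haematopoietic markers in SKBR-3 was 750.2 under DMSO, 780.2 under lapatinib, 358.9 under JQ1 and 359.1 under both drugs. Its main genes moved in opposite directions. LCP1 was at 555 under DMSO, 363 under lapatinib, 149 under JQ1 and 96.3 under both drugs. CD68 was at 178, 407, 206 and 261 in the same order, and so above DMSO in each treated library. PTPRC, CD14, CD3E and HBB, which are among the 7, stayed below 10. The part of cells with such markers in the level of CSF1R was not tested. FLT4, a lymphatic VEGF receptor, was at 13.2 under DMSO, 1.81 under lapatinib, 9.66 under JQ1 and 2.33 under both drugs in BT474m1 and fell there with lapatinib, at -2.34 (-5.23 to -1.17) on 3 against 28 reads. The summed level of 6 endothelial markers in BT474m1 was 286.7 under DMSO, 118.1 under lapatinib, 135.7 under JQ1 and 85.7 under both drugs. Under DMSO and lapatinib, VWF was at 153 and 30.7 and CDH5 at 36.3 and 0. ESAM did not move alike, at 91.5 under DMSO, 87.35 under lapatinib, 117.4 under JQ1 and 78.7 under both drugs. PECAM1, CLDN5 and EMCN stayed below 10. The part of cells with such markers in the level of FLT4 was not tested. AATK, a lemur kinase whose exons overlap BAIAP2 on the opposite strand, reached 12.3 at most, and rose in BT474m1 with both drugs, at 2.14 (1.05 to 4.64) on 20.1 against 4 reads. FLT3 lay between 17.9 and 23.3 in BT474m1 and at 1.38 or lower in SKBR-3. With a pseudocount of 10 the calls of CSF1R in BT474m1 ended, at 0.37 to 0.55, as did those of FLT4 and AATK within a line, that of LTK with lapatinib in SKBR-3, at 0.82, and that of AXL with both drugs, at 0.79. The 16 receptors that did not reach 10 were PDGFRA, PDGFRB, KIT, FLT1, KDR, TEK, TIE1, NTRK2, NTRK3, ALK, ROS1, ROR1, ROR2, MUSK, EPHA5 and EPHA6, with ROR1 the highest of them at 9.18. ROS1 had 0 reads in all 8 libraries.

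Across the families, lapatinib raised 6 of the 34 receptors in SKBR-3, against 11.1% of all genes, and lowered 2, against 9.44%. The interval excluded no difference for 5 of those raised, DDR1, LMTK3, LTK, MERTK and PTK7 (9.68% of all genes), and for both of those lowered, EPHA2 and FGFR3 (8.37%). EPHB1 was the sixth, on 2 reads against 0. In BT474m1 lapatinib raised 6, against 14.0% of all genes, and lowered 5, against 8.06%. These were AATK, AXL, CSF1R, EPHA8, LTK and MERTK, and EPHA2, EPHB2, EPHB3, FLT4 and RET, and the intervals of all 11 excluded no difference (13.5% and 7.67% of all genes). Of the 6 raised in BT474m1, MERTK was the only one that reached 100. MERTK and LTK rose in both lines and EPHA2 fell in both, and no receptor moved at least 2-fold in opposite directions. The median difference over the receptors was 0.02 in SKBR-3 and 0.16 in BT474m1, beside 0.05 and 0.07 over all genes. With folds against 0 reads set to their floor, the SKBR-3 median was 0.00.

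**Figure D4:**
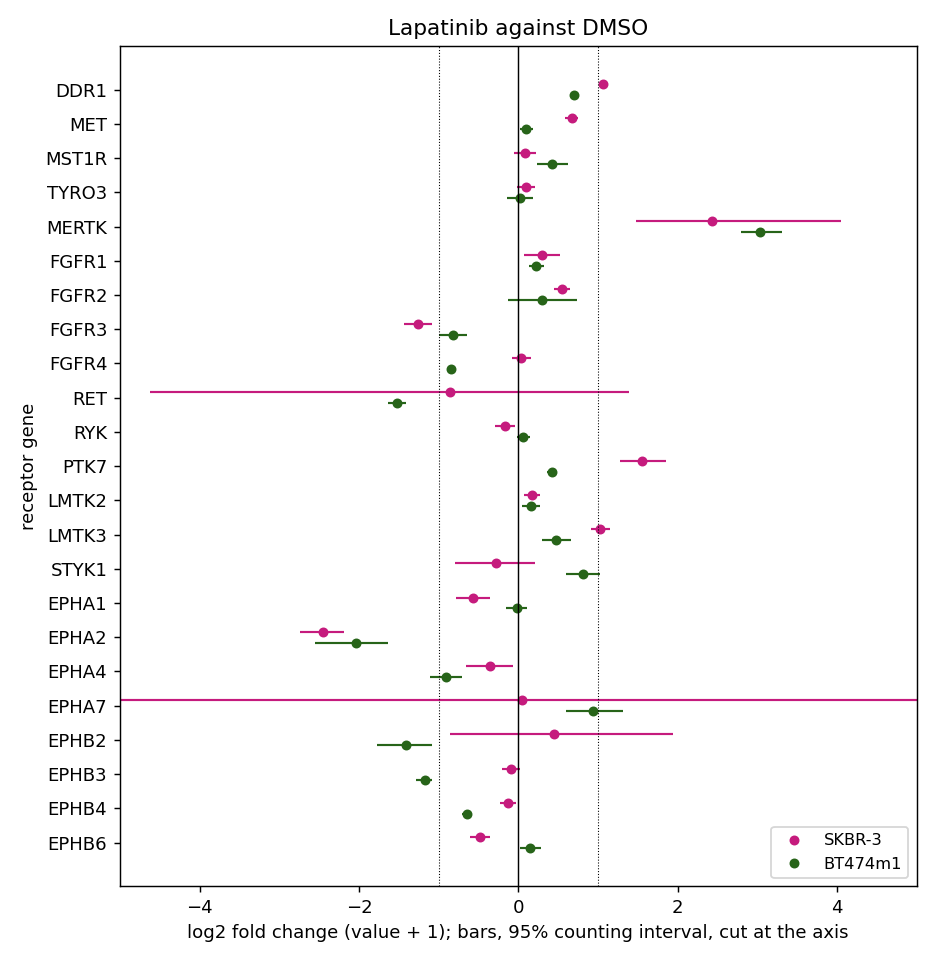
Log2 fold change with lapatinib against DMSO (horizontal axis, log2 of value + 1) of the 23 receptors that reached 100, with bars for the 95% counting interval, cut where they leave the axis. The dotted lines mark 2-fold, and MERTK lies to the right and EPHA2 to the left of them in both lines.

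JQ1 alone raised 4 receptors in SKBR-3, against 3.75% of all genes, and lowered 7, against 11.8%. With an interval that excluded no difference, 2 rose, FGFR3 and MERTK (2.92% of all genes), and 6 fell, CSF1R, EPHA4, EPHA8, MET, PTK7 and TYRO3 (9.77%). The other calls, DDR2 and EPHA7 upward and RET downward, rested on 6 reads or fewer. In BT474m1 JQ1 raised 6, against 4.81%, and lowered 4, against 11.8%. These were CSF1R, EPHA2, EPHA7, EPHB1, FGFR1 and FGFR3, and EPHA3, EPHB6, MET and TYRO3, all with intervals that excluded no difference (4.37% and 11.1% of all genes). The fall of EPHA3 was -0.67 with a pseudocount of 10, short of 2-fold. FGFR3 and EPHA7 rose in both lines, EPHA7 in SKBR-3 with an interval that included no difference, and MET and TYRO3 fell in both. CSF1R fell in SKBR-3 and rose in BT474m1. The median over the receptors was 0.14 in SKBR-3, or 0.00 with folds against 0 reads at their floor, and -0.07 in BT474m1, beside -0.08 and -0.06 over all genes.

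**Figure D5:**
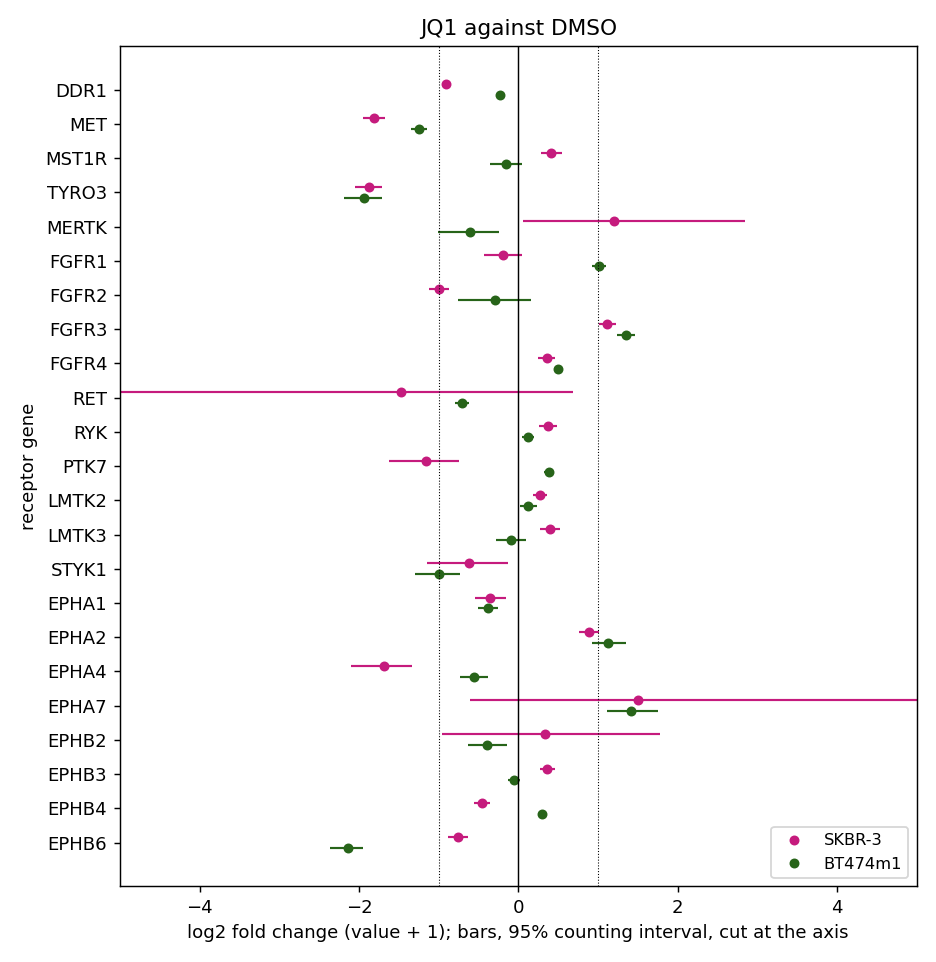
Log2 fold change with JQ1 against DMSO (horizontal axis, log2 of value + 1) of the 23 receptors that reached 100, with bars for the 95% counting interval, cut where they leave the axis. MET and TYRO3 lie left of the 2-fold line and FGFR3 right of it in both lines, while the bars of RET and EPHA7 in SKBR-3 cross no difference.

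Both drugs against DMSO raised 5 receptors in SKBR-3 and lowered 11, against 10.8% and 20.8% of all genes. The interval excluded no difference for 2 raised, LMTK3 and MERTK (9.57% of all genes), and 10 lowered, CSF1R, EPHA1, EPHA2, EPHA4, EPHA8, EPHB4, EPHB6, FGFR3, STYK1 and TYRO3 (19.1%). The others were DDR2, EPHA7 and FLT3 upward and RET downward, on 6 reads or fewer. Of the 10, 6 were among the 12 EPH receptors kept. EPHB4 and EPHB6 fell short of 2-fold with scaling by the median of ratios, as given above, and EPHA8 did so with a pseudocount of 10, at -0.65. In BT474m1 both drugs raised 8 and lowered 8, against 14.2% and 15.3%. All 16 had intervals that excluded no difference (13.8% and 14.8% of all genes), with AATK, AXL, CSF1R, EPHA7, EPHA8, FGFR1, LTK and MERTK upward and EPHA2, EPHB2, EPHB3, EPHB6, FLT4, MET, RET and TYRO3 downward. Counting only calls with such intervals, MERTK rose in both lines and EPHA2, EPHB6 and TYRO3 fell in both. CSF1R and EPHA8 fell in SKBR-3 and rose in BT474m1. The median over the receptors was -0.72 in SKBR-3 and -0.08 in BT474m1, beside -0.08 and 0.00 over all genes. With folds against 0 reads set to their floor, the SKBR-3 median was -0.22.

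Adding JQ1 to lapatinib, that is, both drugs against lapatinib, raised 2 receptors in SKBR-3 and lowered 11, against 3.22% and 16.2% of all genes. Neither raised receptor, EPHA7 or FLT3, had an interval that excluded no difference (2.36% of all genes), and 10 of those lowered did, AATK, CSF1R, EPHA4, EPHB2, FGFR2, LTK, MET, PTK7, STYK1 and TYRO3 (14.1%). EPHA8 was the other one lowered, on 0 reads against 4. A pseudocount of 10 ended the calls of AATK, EPHB2, LTK and STYK1 here, and that of DDR2 in BT474m1. In BT474m1 it raised 1, EPHA7, and lowered 6, DDR2, EPHA8, EPHB6, MET, STYK1 and TYRO3, against 5.2% and 12.5%, and the intervals of all 7 excluded no difference (4.75% and 11.9%). By such intervals, MET, STYK1 and TYRO3 fell in both lines. Of the 6 receptors that lapatinib raised in SKBR-3, 4 were within 2-fold of DMSO with both drugs, DDR1, LTK, PTK7 and EPHB1, and MERTK and LMTK3 were not. Over all genes that lapatinib raised in SKBR-3, 49.2% were within 2-fold of DMSO with both drugs. LTK and EPHB1 had 1 read in the combination library, and DDR1 stood 1.35-fold below lapatinib. LTK and PTK7 were at least 2-fold below lapatinib, as were 33.5% of all genes raised. Of the 6 that it raised in BT474m1, 0 were within 2-fold of DMSO with both drugs, and EPHA8 alone was at least 2-fold below lapatinib, beside 36.7% and 25.5% of all genes raised. The receptors that lapatinib lowered, 2 in SKBR-3 and 5 in BT474m1, were also at least 2-fold below DMSO with both drugs, and FGFR3 and EPHA2 in SKBR-3 and RET in BT474m1 were lower than with lapatinib alone. Of all genes lowered by lapatinib, 17.2% in SKBR-3 and 26.8% in BT474m1 were within 2-fold of DMSO with both drugs.

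Adding lapatinib to JQ1, that is, both drugs against JQ1, raised 4 receptors in SKBR-3 and lowered 7, against 9.79% and 12.3% of all genes. The interval excluded no difference for 3 raised, DDR1, MERTK and PTK7 (8.16%), and 4 lowered, AATK, EPHA2, FGFR3 and MST1R (10.8%). The others were FLT3 upward and EPHA10, EPHB2 and FLT4 downward, on 13 reads or fewer. In BT474m1 it raised 5 and lowered 8, against 12.4% and 7.27%, all with intervals that excluded no difference (11.7% and 6.76%). Those raised were AATK, AXL, EPHA8, LTK and MERTK, and those lowered were EPHA2, EPHB1, EPHB2, EPHB3, FGFR3, FGFR4, FLT4 and RET. The fall of EPHB2 was -0.97 at equal totals and -0.91 with a pseudocount of 10, and that of EPHB1 was -0.96 with a pseudocount of 10, all short of 2-fold, and the rises of AXL, at 0.73, and AATK, at 0.70, and the fall of FLT4, at -0.67, ended there too. By such intervals, MERTK rose and EPHA2 and FGFR3 fell in both lines, while AATK fell in SKBR-3 and rose in BT474m1.

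The log2 change with both drugs was compared with the 2 single-drug changes added together. In SKBR-3, 1 receptor was at least 2-fold above the sum and 7 were below it, against 3.9% and 7.58% of all genes. The receptor above it, FLT3, had 2 reads in the combination library and 0 in the others. In BT474m1, 0 were above and 6 below, against 4.72% and 4.73%. FGFR3 was below the sum in both lines, at -1.46 with a counting SE of 0.121 in SKBR-3 and -1.03 with an SE of 0.113 in BT474m1. EPHA2 was at -1.32 (SE 0.199) in SKBR-3 and -0.82 (SE 0.297) in BT474m1. Both genes were above DMSO with JQ1 alone, and the combination stood near lapatinib alone. MST1R was at -1.28 (SE 0.106) in SKBR-3 and -0.57 (SE 0.150) in BT474m1. Of the others below the sum, AATK, EPHB1, EPHB2 and LTK in SKBR-3 and AXL, CSF1R and EPHA8 in BT474m1 had 5 reads or fewer in at least 1 library, DDR2 in BT474m1 had 12 reads or more, and EPHA10 in BT474m1 was at -1.35 (SE 0.273).

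The ligands, co-receptors and signalling partners of these receptors were read from 4 lists. Of 59 genes listed as ligands 37 were kept. With lapatinib 3 of the 37 rose and 3 fell in SKBR-3, beside 11.1% and 9.44% of all genes. In BT474m1 5 rose and 3 fell, beside 14.0% and 8.06%. FGF11 was among those that fell in SKBR-3 and rose in BT474m1, and FGF12 among those that fell in BT474m1. Neither gene, nor FGF13, was ranked as a ligand of the FGFR genes below. The ligand calls carry no interval here. Some rest on few reads, such as EFNA2 in SKBR-3, at 0 under DMSO and 1.53 under lapatinib. With JQ1 the numbers were 2 up and 14 down in SKBR-3, beside 3.75% and 11.8% of all genes, and 5 up and 11 down in BT474m1, beside 4.81% and 11.8%. Both drugs gave 3 up and 13 down in SKBR-3, beside 10.8% and 20.8%, and 4 up and 15 down in BT474m1, beside 14.2% and 15.3%. The ligand medians with both drugs were -0.38 and -0.77, beside the values of -0.08 and 0.00 over all genes. Listed ligands were ranked by the highest level per kilobase in any of the 8 libraries. The leading one was COL1A1 for the DDR receptors, GAS6 for the TAM receptors, KITLG for the PDGF and KIT family and VEGFB for the VEGF receptors. ANGPT1 led for the TIE receptors, EFNA1 for the ephrin-A receptors and EFNB2 for the ephrin-B receptors. NTF4 led for the NTRK receptors, at 9.64 at most. Among the 8 FGFs ranked for the FGFR genes FGF1 led. FGF12 and FGF13, which were not ranked, were at 192 and 321 in BT474m1 with DMSO. MDK led the group of ALK, LTK and ROS1, and its binding to LTK was not tested. FAM150A, also listed, had 0 reads in all 8 libraries, and FAM150B was at 2.41 at most. AGRN led the group of Wnt receptors and MUSK, and acts through MUSK, which did not reach 10. WNT5A, also listed, was at 3528 under DMSO, 5623 under lapatinib, 1669.5 under JQ1 and 2917 under both drugs in SKBR-3. In BT474m1 it was at 30.2, 15.7, 4.83 and 8.75 in the same order. The line in which a ligand was highest need not be the one that holds the receptor. NRTN led for RET from SKBR-3, where RET had 1 to 5 reads, and was at 0.602 to 1.45 in BT474m1. ARTN, also listed for RET, had 0 reads in SKBR-3 and was at 10.5 to 19.3 in BT474m1. ANGPT1 had 0 reads in BT474m1. Of the 2 ligands of the MET family, MST1, which binds MST1R, was the higher. MST1 has near-identical copies in the genome, so that its values are uncertain.

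EFNB2, the ligand of EPHB4, was at 153 under DMSO, 79.6 under lapatinib, 409 under JQ1 and 345 under both drugs in SKBR-3 and at 977 under DMSO, 674 under lapatinib, 2153 under JQ1 and 1274 under both drugs in BT474m1, and rose with JQ1 by 1.41 and 1.14. COL1A1, a DDR1 ligand, was at 124 under DMSO, 35.2 under lapatinib, 81.2 under JQ1 and 24.1 under both drugs in SKBR-3 and at 1253 under DMSO, 1211 under lapatinib, 394 under JQ1 and 337 under both drugs in BT474m1, and fell with both drugs against DMSO at -2.32 and -1.89 on the log2 scale. COL5A1 fell in the same comparison, at -2.57 and -1.47, as did PDGFB, a ligand of the PDGF receptors, at -1.21 and -1.27. GAS6, the ligand of the TAM receptors, was at 4.29 under DMSO, 3.06 under lapatinib, 3.87 under JQ1 and 1.38 under both drugs in SKBR-3 and at 65.1 under DMSO, 131 under lapatinib, 89.4 under JQ1 and 166 under both drugs in BT474m1.

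Of 18 co-receptors 14 were kept, and of 39 adaptors and ubiquitin ligases 36. With lapatinib, 1 co-receptor rose and 4 fell in SKBR-3, and 2 rose and 3 fell in BT474m1. Among the adaptors, 4 rose and 5 fell in SKBR-3, and 4 rose and 2 fell in BT474m1. The shares of all genes were 11.1% up and 9.44% down in SKBR-3 and 14.0% up and 8.06% down in BT474m1. Of the 4 co-receptors that fell in SKBR-3, NRP2 and NGFR had 5 reads or fewer in both libraries. Adding JQ1 to lapatinib gave 3 co-receptors up and 2 down in SKBR-3 and 2 up and 3 down in BT474m1, and 3 adaptors up and 2 down in SKBR-3 and 2 up and 5 down in BT474m1, beside 3.22% up and 16.2% down, and 5.2% up and 12.5% down, of all genes. SDC4, a heparan sulfate proteoglycan that presents growth factors, rose under the combination, at 1.66 in SKBR-3 and 1.29 in BT474m1. SOCS2, a ubiquitin ligase adaptor, was at 124 under DMSO, 455 under lapatinib, 70.2 under JQ1 and 158 under both drugs in SKBR-3 and at 373 under DMSO, 1272 under lapatinib, 216 under JQ1 and 294 under both drugs in BT474m1. It rose with lapatinib by 1.87 and 1.77 and fell with both drugs against lapatinib, at -1.52 and -2.11. GRB7, an adaptor whose gene lies in the HER2 amplicon, rose with both drugs against DMSO by 2.76 and 1.06. Of 18 shedding proteases and phosphatases 17 were kept. Lapatinib lowered 1 of them in SKBR-3, PTPRG, at 4.33 under DMSO and 1.55 under lapatinib. This call rests on few reads, since 1 read was worth 0.716 and 0.766 units in these libraries. In BT474m1 lapatinib raised 2, MMP14, at 8.02 and 24.1, and PTPRB, at 47.6 and 149. The shares of all genes are those given for the adaptors with lapatinib.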

How the data were processed

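Poly(A) RNA of 8 libraries was sequenced, 1 for each of 4 treatments in each of 2 cell lines. Each deposited table gives 1 signal value for every gene, namely RSEM estimated counts that the authors scaled to an upper quartile of 1000 over the genes above 0. The submitters' processing notes list hg19, RSEM, Picard 1.88, SAMtools 1.2, DESeq, DESeq2 1.12.3 and R 3.2.2 without saying what each was used for. The study's methods describe RNA-seq with the aligner STAR, another genome build and another quantifier, Salmon, which does not match these RSEM tables, so that the aligner behind them is uncertain. Groups were taken from the labels, and replicates were not available for any group.

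The filter kept 14429 of 20531 genes, those that reached 10 in at least 1 library. Differences were taken on the log2(value + 1) scale and called at 2-fold. Read numbers were recovered from the step of 1 read, which was worth 0.471 to 0.766 units, and 249 of 253 receptor values above 0 were whole within 0.01 reads. The 95% interval of a difference is an exact Clopper-Pearson interval of the share of 2 libraries' reads, and 0 reads allow up to 3 reads, or 1.41 to 2.30 units. Values per kilobase used the Ensembl canonical transcript of a gene in GENCODE 44. The alternatives were a pseudocount of 10, other filters, scaling by the median of ratios, scaling to equal totals, and counting only calls whose interval excluded no difference.

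Receptors that reached 100 were described in all libraries, lower ones by range or, where they changed at least 4-fold with an interval that excluded a 2-fold change, by values, and genes of the other lists where they reached 100 and moved alike in both lines, plus the best expressed ligand of each family. The receptors and the gene lists were chosen with earlier results of these data known. Promoters were those of RefSeq on GRCh38.p14, exon overlaps were read from GENCODE 44, and proteins were not used here. The software was scipy 1.17.1 with pandas 2.3.3 and numpy 2.4.6 under Python 3.11.15, and matplotlib 3.10.9 for plots.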

Additional observations from a re-analysis of the deposited data

Results flagged for a closer look

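A few low receptors moved at least 2-fold in opposite directions in the 2 lines, and the difference between the lines was not tested, since each group held 1 library. CSF1R changed with JQ1 by -2.91 on the log2 scale in SKBR-3, on 16 reads against 117, and by 1.96 in BT474m1, on 6 reads against 0, at least 2.05-fold higher with DMSO set to the floor of 3 reads, though the counting interval starts at 0.27 on the log2 scale. With both drugs its change was -3.31 in SKBR-3, on 11 reads against 117, and 2.50 in BT474m1, on 8 reads against 0, at least 3.30-fold higher by the same floor, with an interval from 1.08. The EPHA8 difference under both drugs was -2.75 in SKBR-3, on 0 reads against 8, at least 2.78-fold lower by that floor with an interval that ends at -0.83, and 2.40 in BT474m1, on 33 reads against 6. With a pseudocount of 10 the SKBR-3 value was -0.65 and no longer passed 2-fold. AATK changed between both drugs and JQ1 by -1.58 in SKBR-3, on 5 reads against 19, and by 1.54 in BT474m1, on 20.1 against 7. With a pseudocount of 10 the AATK values were -0.73 and 0.70 and the BT474m1 values of CSF1R were 0.37 with JQ1 and 0.55 with both drugs, none of which passed 2-fold.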

How the results depend on the processing

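Scaling by the median of ratios left each count of receptors within 1.5-fold, no alternative reversed the direction of a called receptor, and every other count that moved further is given here. In SKBR-3, a pseudocount of 10 left 1 receptor raised by JQ1, 2 raised by both drugs, 0 raised and 6 lowered by both drugs against lapatinib, and 3 lowered by both drugs against JQ1. Requiring 100 in any library left 3 raised by both drugs, 1 raised and 7 lowered against lapatinib, and 4 lowered against JQ1, and counting only intervals that excluded no difference left 2, 2, 0 and 4 for JQ1 raised, both drugs raised, raised against lapatinib and lowered against JQ1. Scaling to equal totals left 2 raised by JQ1, and without a filter 4 receptors fell with lapatinib and 11 with JQ1. In BT474m1, a pseudocount of 10 left 5 raised by both drugs, and 3 raised and 5 lowered by both drugs against JQ1. Requiring 100 left 1 raised by lapatinib, 3 by both drugs and 1 against JQ1, and 8 fell with lapatinib without a filter. Of the receptors higher in BT474m1 with DMSO, 9 remained when 100 was required. Of 374 receptor differences 139 were called, and a pseudocount of 10 ended 41 of these calls and added 0, scaling by the median of ratios ended 3 and added 2, and equal totals ended 5 and added 4. The median of all genes shifted by -0.14 at equal totals in JQ1 against DMSO in SKBR-3. It shifted by 0.11 in both drugs against lapatinib in SKBR-3 and by -0.15 between the lines under the median of ratios. No paired analysis was possible because the groups carry no replicate numbers to share and the results come from no test. A fit with the 2 lines as a block, which would take the lines as replicates of each other, was not run. Depth limits the receptors with few reads.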

Other observations

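HGF, the ligand of MET, and GFRA1, a co-receptor of RET, were chosen for mention after their values were seen. HGF had 0 reads in all 8 libraries. GFRA1 was at 27.8 under DMSO, 276.5 under lapatinib, 0.966 under JQ1 and 1.17 under both drugs in BT474m1, and at 20, 14.6, 0 and 0 in the same order in SKBR-3. In the BT474m1 lapatinib library, where GFRA1 was highest, RET was at 467, below its level of 1343 with DMSO.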
